A study of Mus musculus with 4 samples.

Results

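The 1884 regions described here are stretches of accessible chromatin in B16-F10 mouse melanoma cells that were called in both genotypes but held a lower place among the peaks of cells without Ssbp4. They were taken from 44000 regions called in all 4 ATAC-seq libraries of the study, which are 60.9% of the 72251 regions called in any library. In each library the 44000 shared regions were ranked by the −log10 p-value of their strongest peak and given a percentile, with 100 for the strongest. A region was a member when its lower wild-type percentile exceeded its higher knockout percentile by over 10 points, a difference called the gap below. The members were thus chosen by the p-values of these same libraries, so every rank, fold and read pileup given for them is a description and carries no test.

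The knockout group is 2 libraries of B16-F10 cells in which Ssbp4 was deleted by electroporating Cas9 with a mixture of guides against the gene. The wild-type group is 2 libraries labelled as such for Ssbp4; as control for the editing the protocol gives a guide cutting between genes on chromosome 2, without saying that these 2 libraries received it. Cells of all 4 libraries had been frozen, were thawed, and entered the assay at a viability of at least 75%. The labels do not say whether the knockout cells are a clone or a mixed population, how complete the deletion was, or whether the replicates came from separate cultures. Differences between replicates may therefore be technical, and 2 libraries against 2 cannot give a two-sided exact permutation p below 0.33. Positions are in the GRCm39 build, and regions are named by position alone, since no gene annotation of that build was used; the knockout itself and the melanoma identity of the cells were not checked from the peak lists.

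ATAC-seq uses a transposase that inserts sequencing adapters where DNA is not packed against nucleosomes, so that peaks of reads mark promoters, enhancers and other open sites. SSBP4 belongs to a family of single-stranded DNA-binding proteins that bind the LIM-domain-binding cofactors LDB1 and LDB2. These cofactors carry no DNA-binding domain of their own, are brought to chromatin by LIM-homeodomain and LIM-only proteins with their partners, and can bridge distant regulatory sites by binding to each other. B16-F10 is a transplantable melanoma line of the C57BL/6 mouse.

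The 2 knockout libraries had 50068 and 57698 calls on chromosomes 1 to 19, X and Y, and the 2 wild-type libraries had 59215 and 63080. Over all shared regions the knockout libraries also had the lower fold enrichment, with medians of 5.12 and 6.01 against 7.45 and 8.28 in wild type, as deposited by the authors. Folds and pileups of the members are therefore set beside those of all shared regions. The p-value depends on the pileup and the local background together, so a library-wide difference in enrichment can also move ranks, and its part in the members' ranks was not tested. Ranks of the shared regions correlated with a Spearman rho of 0.981 between the knockout libraries, 0.988 between the wild-type libraries and 0.954 to 0.964 across genotypes. These values are over the same 44000 regions, which are not replicates.

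The 1884 members are 4.28% of the shared regions. The mirror-image rule, in which the lower knockout percentile exceeds the higher wild-type percentile by over 10 points, took 1059 regions, or 2.41%, so there were 1.78 members for each region rising in rank. This ratio was 1.15 without knockout replicate 2, 1.40 without knockout replicate 1, and 1.43 and 1.49 without wild-type replicates 1 and 2, and it was 1.26 when regions were ranked by fold. Without a minimum size the balance ran the other way. Both knockout percentiles lay below both wild-type percentiles in 26.7% of the shared regions and above them in 32.2%. Large falls thus outnumbered large rises, while small rises outnumbered small falls. The percentiles of each library have the same mean, so the falls of some regions must be offset by rises of others. The excess of falls grew with the size of the gap. A gap over 15 points was found in 799 regions falling and 300 rising, a gap over 20 in 297 and 90, a gap over 30 in 42 and 9, and a gap over 40 in 6 and 1. These counts restate the ranking that chose the members and are not a test of it.

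**Figure D1:**
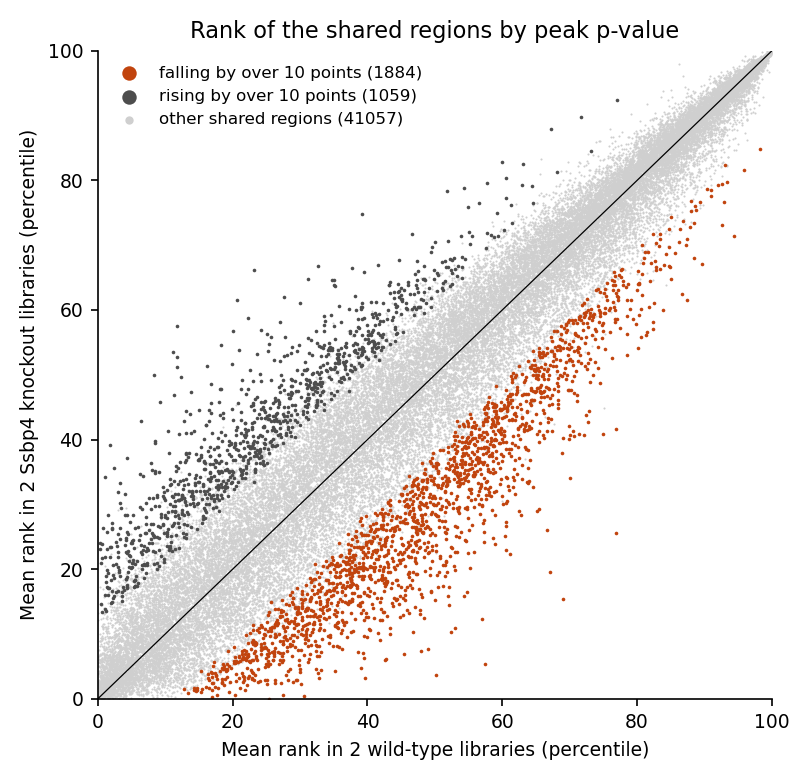
Mean rank of each shared region in the 2 Ssbp4 knockout libraries (vertical axis, percentile) against its mean rank in the 2 wild-type libraries (horizontal axis, percentile), with the line of equal rank. The 1884 members (orange) lie below the line, mostly in the middle of the wild-type range, and the 1059 rising regions (dark grey) lie above it, mostly at low wild-type ranks.

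Members were mostly of middle rank in wild-type cells, by the percentiles that the rule used. Their median percentiles were 27.1 and 27.8 in the knockout libraries, against 48.5 and 48.1 in the wild-type libraries. By mean wild-type percentile, 1618 members (85.9%) lay between 20 and 70. The share of shared regions that were members was highest between the 40th and 60th wild-type percentiles, at 8.85% and 8.84% of the 2 bins of 10 points, and dropped to 0.274% above the 90th. No region of the lowest 10 wild-type percentiles can be a member, since a gap over 10 needs that much room. By mean percentile over the 4 libraries, members were 8.72% of the bin from 30 to 40 and 0.43% of that from 80 to 90. Rising regions had a like order, with 5.31% and 0.045% in these bins, so a middle rank was not particular to members. In the knockout 261 members stood in the lowest 10 percentiles by mean rank. They were 6.21% of the 4205 shared regions there, beside 4.28% of all shared regions. By mean rank, 605 members (32.1%) stood at or under the 50th percentile in the knockout but over it in wild type. The share of all shared regions that did so is not given here. Above the 75th percentile there were 15 members by their mean knockout rank, against 122 by their mean wild-type rank. All of these counts follow largely from the rule.

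The gap had a median of 14.02 points, and its 90th percentile over the members was 22.1. Differences between replicates were smaller for most members. The median difference between the replicate percentiles of a member was 3.15 points in the knockout and 2.54 points in wild type, and over all shared regions these were 2.69 and 2.16. The gap was larger than both replicate differences in 1805 members (95.8%), beside 13.3% of all shared regions. Over all shared regions the replicate differences had 90th percentiles of 9.36 points in the knockout and 7.22 in wild type. By the rule, every member's gap lies above these values. A positive gap was possible only in the 26.7% of shared regions with both knockout percentiles below both wild-type percentiles. Both shares thus follow largely from the rule and do not test the gap against replicate differences. At the threshold there was no break in the data. The member with the smallest gap, chr2:50806036-50807318, had percentiles of 54.8 and 51.5 in the knockout, against 67.8 and 64.8 in wild type. Just outside, chr3:89211949-89213503 had 14.97 and 11.5 in the knockout, against 28.4 and 24.97 in wild type.

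The deposited fold enrichment gives the size of the difference in each library. Its median over the members was 3.69 and 4.41 in the knockout libraries, against 8.23 and 9.17 in the wild-type libraries. By fold, the members' medians thus lay a little above those of all shared regions in wild type (7.45 and 8.28). In the knockout they lay below them (5.12 and 6.01). By p-value the members stood a little below the middle in wild type too, at median percentiles of 48.5 and 48.1. Their median wild-type pileups were 173 and 198.5, against 197 and 231 for all shared regions. Regions rising in rank had medians of 4.47 and 5.13 in the knockout, against 4.55 and 4.96 in wild type, so their folds were nearly equal in the 2 genotypes while the rest of the regions were lower in the knockout. On the log2 scale the members' difference in mean log2 fold, knockout minus wild type, had a median of -1.04, with a range from -1.33 at the 10th to -0.75 at the 90th percentile. Over all shared regions it was -0.37, which leaves the members 0.66 lower than the rest (a difference of -0.66). With each fold divided by its library's median over the shared regions, both knockout folds lay below both wild-type folds in 1847 members (98.0%) and in 18.3% of all shared regions. These values come from the same peaks as the ranks and describe the members without supporting their choice.

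**Figure D2:**
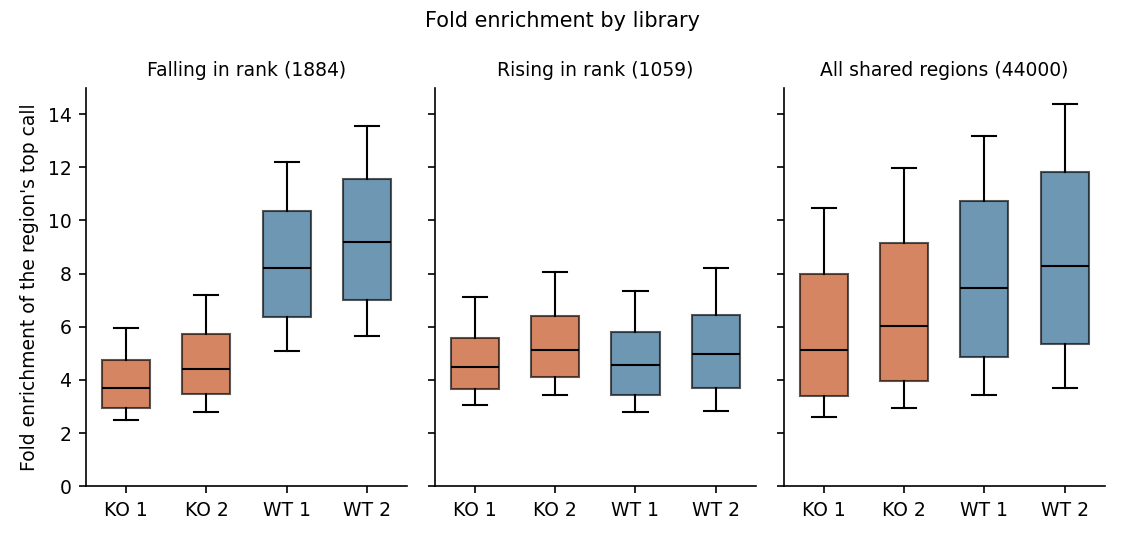
Fold enrichment of the strongest call (vertical axis) in knockout libraries 1 and 2 (orange) and wild-type libraries 1 and 2 (blue), for members, rising regions and all shared regions. Boxes span the quartiles with the median, and whiskers run to the 10th and 90th percentiles; the members' medians are 3.69 and 4.41 in the knockout against 8.23 and 9.17 in wild type.

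The fold is a ratio, and its numerator and denominator were recovered separately from the lists. The pileup, which is the number of extended reads over the summit, had medians over the members of 78 and 95 in the knockout libraries and 173 and 198.5 in the wild-type libraries. The counting error of a single such value, as the square root of the count, was 11.3% and 10.3% in the knockout, against 7.60% and 7.10% in wild type. Every member had the lower mean log2 pileup in the knockout, beside 90.7% of all shared regions. The median difference in log2 pileup was -1.07 for the members and -0.36 for all shared regions. The local background at the summits differed by a median of 0.01 on the log2 scale for the members and 0.05 for all shared regions. In these values, which are not scaled between libraries, the members' median difference in fold thus went with the reads at the summit. The members' median background was 17.2 and 17.45 in the knockout, which is the genome-wide level of each library. In wild type it was 18.6 and 19.4, above genome-wide levels of 14.7 and 15.1. The background difference varied between members, from -0.50 at the 10th percentile to 0.22 at the 90th. No recovered background lay below the genome-wide level of its library, so a drop beneath that level would not show. In 54.8% and 52.6% of the members in the knockout libraries the local background equalled the genome-wide level of the library (within 1%), against 30.1% and 30.1% in the wild-type libraries. For all shared regions these shares were 25.7% and 23.4% in the knockout, against 23.7% and 24.0% in wild type. Most members thus had no surplus of reads around the peak in the knockout libraries. A −log10 q-value under 5, close to the limit of calling, was found in 60 and 21 members in the knockout and in 0 and 0 in wild type. The knockout counts were 3.185% and 1.115% of the members, beside 3.084% and 1.325% of all shared regions, so the shares were alike. In wild type 0.93% and 0.75% of all shared regions were that weak, and the rule shuts out the lowest 10 wild-type percentiles.

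Members were shorter than the other shared regions, and their calls were shorter in the knockout. The merged regions had a median length of 1012 bp for members, 1079 bp for rising regions and 1178 bp for all shared regions, and 0.637% of members against 2.15% of all shared regions reached 2500 bp. The strongest call in a member had a median length of 712 and 731 bp in the knockout libraries, against 929.5 and 907 bp in the wild-type libraries. Over all shared regions the calls were of like length in both genotypes, at 1025 and 997 bp in the knockout, against 1041 and 1023 bp in wild type. Both knockout calls were shorter than both wild-type calls in 66.5% of the members and in 30.2% of all shared regions. A call is shorter where the signal is lower, so length is tied to the measure that chose the members.

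Nearly all members were single peaks in every library, with summits at close positions. In 98.1% of them each library had a single call, against 97.1% of all shared regions. The strongest summit lay a median of 24 bp apart between the knockout and wild-type replicates 1 and 16 bp apart between the replicates 2. Between the knockout replicates the distance was 24 bp, and between the wild-type replicates it was 6 bp. Over all shared regions the same distances were 12, 7, 11 and 6 bp. Summits of members were thus as far apart between knockout replicates as between genotypes. Summits over 200 bp apart were found in 6.58% and 5.36% of the members between genotypes, for replicates 1 and 2, and in 7.28% and 6.275% of all shared regions.

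The 12 members with the largest gap lay on 8 chromosomes and were 709 to 2058 bp long. Their folds ran from 2.20 to 5.15 in the knockout libraries and from 6.05 to 17.35 in the wild-type libraries, and the ratio of the geometric mean folds, knockout over wild type, from 0.207 to 0.401. In 10 of the 12, both knockout libraries had a local background at the genome-wide level. In knockout libraries 1 and 2 taken singly, 54.8% and 52.6% of all members were at that level, beside 25.7% and 23.4% of all shared regions. The share at that level in both libraries at once is not given here.

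The largest gap, 50.95 points, belonged to chr6:113219772-113220480. Its percentiles were 15.9 and 14.8 in the knockout libraries and 71.2 and 66.9 in the wild-type libraries. The pileups were 95 and 112 in the knockout against 430 and 451 in wild type, and the calls were 397 and 390 bp long in the knockout against 688 and 709 bp in wild type. This is 1 of the 2 regions among the 12 with a local background above the genome-wide level in the knockout libraries, the other being chr6:87563883-87564768, with percentiles of 18.5 and 26.3 in the knockout, against 61.3 and 60.95 in wild type.

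The lowest ratio of folds belonged to chr4:153852759-153853651, which lies 188.5 kb from the nearest other shared region. Its folds were 2.42 and 2.98 in the knockout, against 13.6 and 12.4 in wild type, a ratio of 0.207. The percentiles were 3.95 and 6.80 in the knockout, against 61.9 and 53.1 in wild type, so the genotypes were much farther apart than the replicates. Another region far from the next shared one, chr3:156653334-156654504, lies 144.2 kb from it. Its folds were 2.86 and 3.42 in the knockout, against 10.3 and 12.4 in wild type.

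The strongest wild-type folds among the 12 were at chr7:70309472-70310427, with 3.63 and 4.99 in the knockout, against 15.01 and 17.35 in wild type. The largest wild-type pileups were at chr3:87212511-87213576, with 62 and 94 in the knockout against 530 and 553 in wild type. Its percentiles of 19.8 and 31.5 in the knockout were the farthest apart between knockout replicates among the 12, and in wild type it stood at 78.4 and 75.3. The longest of the 12, chr1:35165367-35167424, was called over 1954 bp in knockout replicate 1 but 438 bp in replicate 2, and over 2026 and 2012 bp in wild type, so its knockout calls differed more between replicates than its percentiles of 10.98 and 13.7.

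The remaining regions of the 12 had knockout percentiles under 14 in both libraries. At chr14:59862419-59863514 they were 1.66 and 5.69, against 46.4 and 54.05 in wild type. At chr16:31447157-31447948 they were 6.84 and 13.7, against 54.1 and 50.6. At chr8:87533547-87534598 they were 6.84 and 7.975 in the knockout, against 51.2 and 44.6 in wild type, and at chr8:108205376-108206195, on the same chromosome, 4.68 and 9.13 in the knockout, against 45.1 and 45.7 in wild type. The last, chr1:151067495-151069284, is described with its neighbours below.

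**Figure D3:**
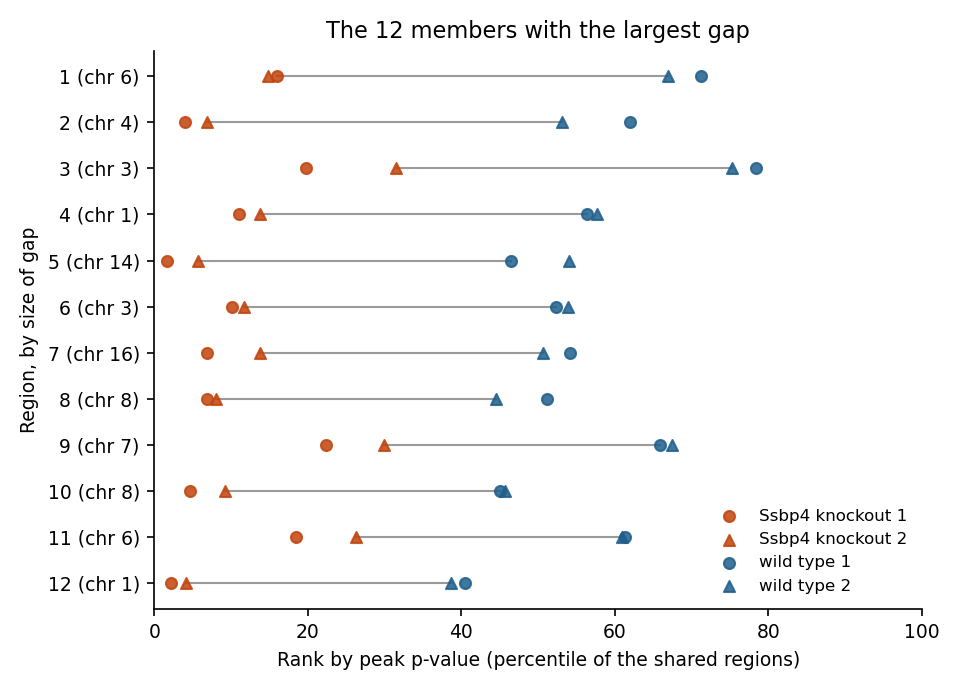
Percentile rank (horizontal axis) of the 12 members with the largest gap, numbered from the largest, in knockout libraries 1 and 2 (orange circle and triangle) and wild-type libraries 1 and 2 (blue circle and triangle). Grey lines join the higher knockout to the lower wild-type value, which is the gap; it runs from 50.95 points for region 1 to 34.5 points for region 12.

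Members were found on 20 of the 21 chromosomes, all but Y, on which 0 of 20 shared regions were members. Chromosome 1 had the highest share, with 162 members among 2749 shared regions (5.89%, Wilson 95% interval 5.07 to 6.84%), and chromosome 14 the lowest apart from Y, with 38 of 1351 (2.81%, interval 2.06 to 3.84%). The intervals cover counting error only, and regions of a chromosome share whatever copy number the cells have. Members outnumbered rising regions on 18 chromosomes. On chromosomes 14, 18 and Y they did not. Chromosome 14 had 69 rising regions against 38 members and chromosome 18 had 49 against 32, and on both the whole set of shared regions ranked higher in the knockout, by a median of 2.45 and 1.89 points beside 0.41 over all chromosomes. Ranked within its own chromosome, 4.81% of the regions on chromosome 14, 4.38% on chromosome 18 and 4.91% on chromosome 1 were members. Chromosome X had a like shift of 1.79 points, but 22 members against 19 rising regions, and 3.81% of its regions were members when ranked within the chromosome. The copy number of the chromosomes was not analysed here.

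**Figure D4:**
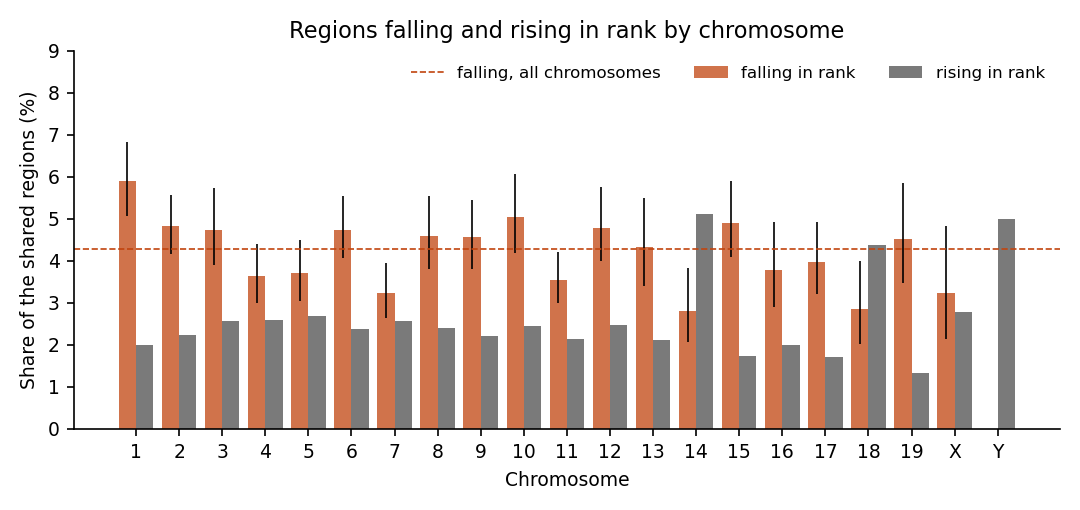
Share of the shared regions of each chromosome that were members (orange, with Wilson 95% intervals for counting error; none drawn for Y) or rose in rank by over 10 points (grey), in percent. The dashed line is the members' share over all chromosomes, 4.28%; chromosome 1 stands highest at 5.89%, and on chromosomes 14 and 18 rising regions outnumber members.

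Members tended to lie farther from the next shared region than shared regions as a whole. Regions not called in all 4 libraries did not enter these distances. Another shared region lay within 10 kb of 40.1% of the members, beside 49.8% of all shared regions. The median distance to the nearest other shared region was 12.7 kb for members, 8.44 kb for rising regions and 10.05 kb for all shared regions. The share of regions that were members was higher in each bin of larger distance. It was 3.35% of the regions with a neighbour within 5 kb and 3.50, 4.21, 5.29 and 6.15% in the bins up to 10, 20, 50 and 100 kb. Of the 1545 regions over 100 kb from the next, 143 were members, or 9.26% (Wilson 95% interval 7.91 to 10.8%). Rising regions showed another order, with 4.04% in the nearest bin, 1.88 to 2.40% in the middle bins and 3.69% in the farthest.

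Rank could enter this comparison, because members come from the middle of the ranking. Among the regions with a mean percentile over the 4 libraries of 20 to 60, the shares were 4.97, 6.65, 8.07, 9.87, 11.4 and 15.2% in the same bins. The order with distance was thus as steep among regions of middle rank. Distance to the next region did not enter the rule directly, but the p-value depends on the local background. The background difference varied with the distance between 2 neighbours in genome order, which need not be the distance to the nearest region. For neighbours of regions that were no members, the log2 background difference relative to all shared regions was -0.10 for pairs within 5 kb. For pairs over 100 kb apart it was 0.12. The part of the background in the order with distance was not tested. Regions are not replicates, and the difference between distances was not tested.

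**Figure D5:**
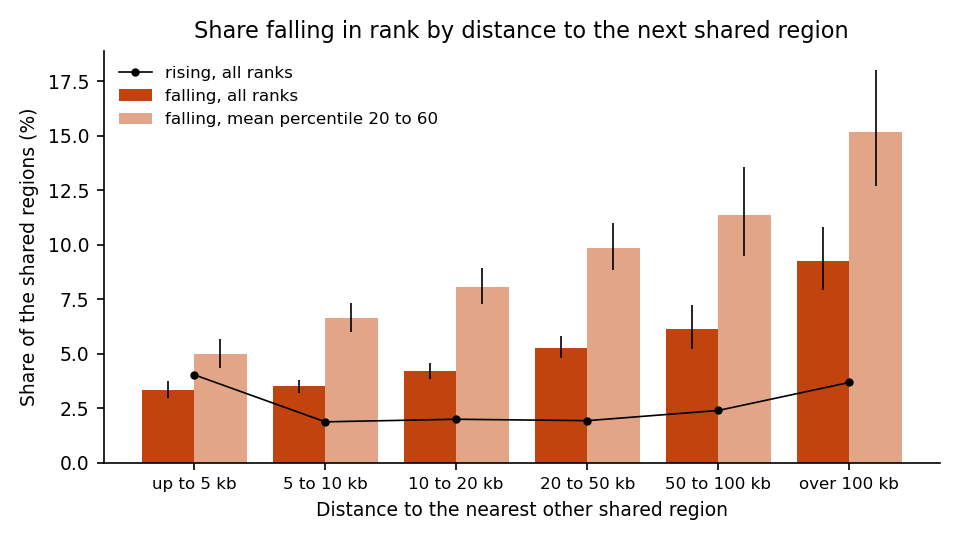
Share of the shared regions that were members (vertical axis, percent, with Wilson 95% intervals for counting error) by distance to the nearest other shared region, for all ranks (dark orange) and for regions with a mean percentile of 20 to 60 (light orange). The members' share is higher in each bin of larger distance in both, up to 9.26% and 15.2% over 100 kb; the black line is the share of regions rising in rank.

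Within 5 kb, regions next to a member were less often members than regions next to a non-member, but the count is small. Of 286 neighbours in genome order within 5 kb on either side of a member, 4 (1.40%) were members themselves. Among the neighbours of regions that were no members the share was 3.37%. A pair of neighbouring members counts once from each side, so the 4 come from fewer pairs. The other 282 ranked higher in the knockout by a median of 3.80 points, beside 1.51 points for neighbours of non-members, and 9.44% of the 286 were rising regions, beside 3.85%. This higher rank went with a lower background and not with more reads at the summit. Relative to all shared regions their log2 pileup differed by 0.02 (0.03 beside non-members), while their local background was lower in the knockout by 0.28, a log2 difference of -0.28 (-0.10 beside non-members). MACS2 takes the local background from windows around the peak, which can include the reads of a neighbour; its part in these ranks was not tested. At 10 to 20 kb the pattern was the other way round, and 6.73% of the 803 neighbours of members were members against 3.62% for non-members. From 5 to 10 kb the shares were 3.45% and 3.43%.

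In genome order, 1681 members (89.2%) had no member as the next shared region on either side. Only 4.28% of the shared regions are members, so this high share does not show that members lie apart from each other. The rest formed 87 runs of 2, 7 runs of 3 and 2 runs of 4. The runs of 4 were named after their values were seen. At chr15:32206968-32576653, 4 consecutive shared regions over 369.7 kb had gaps of 20.3 to 29.6 points, with percentiles between 10.98 and 28.2 in the knockout and between 36.2 and 54.9 in wild type. The run at chr9:22676735-23825385 spans 1149 kb, with gaps of 10.4 to 16.9 points. The tightest of the runs of 3 is chr1:151067495-151080823, which is 13.3 kb long and has gaps of 27.9 to 34.5 points.

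That run lies in 1 of the 4 windows of 1 Mb that tie for the most members, with 7 each. Of 2287 windows with a shared region, 1107 held a member, 626 held exactly 1 and 23 held at least 5. Between 151 and 152 Mb of chromosome 1, 7 of 29 shared regions were members (24.1%) and 1 was a rising region. Within the run, chr1:151067495-151069284 had folds of 2.26 and 2.71 in the knockout, against 8.16 and 8.86 in wild type. Next to it chr1:151073493-151074204 had 3.58 and 4.01 in the knockout against 9.45 and 11.3 in wild type. The last of the run, chr1:151079321-151080823, was among the weakest shared regions in the knockout, at percentiles of 0.232 and 0.700 with folds of 1.92 and 2.22. In wild type it stood at percentiles of 28.6 and 32.7 with folds of 6.25 and 7.63. The other members of this window had gaps of 14.2 to 30.6 points.

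The other windows with 7 members had more shared regions. Chromosome 3 from 145 to 146 Mb had 7 of 38, chromosome 15 from 97 to 98 Mb 7 of 48, and chromosome 17 from 31 to 32 Mb 7 of 52. On chromosome 3, chr3:145483807-145484667 had the largest gap of its window, 22.5 points, with percentiles of 4.68 and 2.63 in the knockout, against 28.6 and 27.1 in wild type. The chromosome 17 window contains chr17:31893127-31894048, a member from the top of the ranking, with percentiles of 70.6 and 72.4 in the knockout, against 95.1 and 93.65 in wild type. Its pileups were 404 and 531 in the knockout, against 1710 and 1811 in wild type. In the chromosome 15 window chr15:97681905-97682933 had pileups of 443 and 556 in the knockout, against 864 and 1195 in wild type, but folds of only 2.41 and 2.78 in the knockout, against 4.26 and 5.13 in wild type.

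In the fifth window, chromosome 15 from 90 to 91 Mb, 6 of 17 shared regions were members (35.3%), and 14 of 17 had the lower mean rank in the knockout. Its median rank change, knockout minus wild type, was -11.7 points, the lowest of the 1381 windows with at least 10 shared regions, over which the median was 0.40. In the windows with 7 members the median change was -3.42 points on chromosome 17, where 38 of 52 regions had the lower mean rank in the knockout, -1.74 on chromosome 1 (20 of 29), -0.39 on chromosome 15 (26 of 48) and -0.09 on chromosome 3 (20 of 38). The strongest gap of the chromosome 15 window was at chr15:90244867-90245663, 136.5 kb from the next shared region, with percentiles of 44.8 and 44.2 in the knockout, against 72.6 and 73.1 in wild type and folds of 5.61 and 6.72 in the knockout, against 14.5 and 17.0 in wild type. The strongest peak among its members, chr15:90917922-90919133, had percentiles of 69.0 and 66.2 in the knockout, against 83.3 and 82.0 in wild type. The windows were ordered by their count of members, so these counts describe the windows and are not a test of clustering.

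Members lay about as near as other shared regions to the places where a call was missing in the knockout. Of 5122 regions called in both wild-type and neither knockout library, at least 1 lay within 10 kb of 108 members (5.73%), beside 6.56% of all shared regions. Within 50 kb the shares were 31.4% of the members and 31.1% of all shared regions. For the 1096 regions called in both knockout and neither wild-type library the shares within 10 kb were 1.70% and 1.37%. These distances were not tested.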

How the data were processed

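Each library has a deposited peak list in narrowPeak format, called per library. Peaks were called with MACS2 on GRCm39, per the submitters' processing notes; for versions, aligner, read filters and Tn5 shift the sources used here give nothing. The authors' display score of each call was not used. The fold enrichment at the summit is a ratio deposited by the authors, as are the −log10 p-value and −log10 q-value, which depend on depth. The summit offset deposited by the authors gave the summit positions.

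Only chromosomes 1 to 19, X and Y were used, which left out 0.277% and 0.263% of knockout calls and 0.221% and 0.188% of wild-type calls. They were merged where they overlapped by at least 1 bp and ranked as described, ties sharing their mean rank, with Python 3.11.15, pandas 2.3.3, numpy 2.4.6 and scipy 1.17.1. Pileup and background were recovered from the fold, (pileup + 1)/(background + 1), and the Poisson p-value; the pileup came within 0.05 of a whole number for 100.0% of calls in each library. Total reads are unknown; the genome-wide background pileup, which rises with read number and fragment length, was 17.2 and 17.45 in the knockout, against 14.7 and 15.1 in wild type. The procedure was run on simulated lists with planted falling and rising regions. Those lists held no local background and only a uniform lowering of the knockout values. They therefore do not check how enrichment or background differences between libraries move ranks.

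The named regions are the 12 members with the largest gap, those nearest the threshold on either side, and the members of the 5 windows of 1 Mb with the most members. The members, lists and rules were chosen with earlier results of these data known. No statistical test was made. The tables of genes, promoters and sequences at hand belong to another build, so genes, cell type markers, gene lists, promoters and motifs were not analysed here and no sequence is printed. Alternatives changed the ranking value, the merging, the gap and the libraries.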

Additional observations from a re-analysis of the deposited data

How the results depend on the processing

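Members outnumbered rising regions under all 17 alternatives. Ranking by the q-value gave the same 1884 members; ranking by the fold gave 2956 members (1626 of the 1884 among them) and 2345 rising regions, and ranking by the recovered pileup, chosen after seeing the data, kept 1525. Under the p-value, q-value, fold and pileup alike, 1382 members (73.4%) remained. A gap over 5, 15 or 20 gave 4493, 799 and 297 members and 3695, 300 and 90 rising regions, with median member lengths of 1039, 981 and 958 bp. Windows of 500 bp around summits shortened the median length to 550 bp by construction. Without 1 library, whose genotype then rests on a single list and sets a weaker condition, there were 2759 to 3345 members, 1854 to 2893 rising regions and a median length of 948 to 1001 bp. The members' count grew by over 1.5 times without knockout replicate 1 (3345) and without knockout replicate 2 (3318), and the rising count did so without any of the 4 libraries; 1752 to 1870 of the 1884 members were kept. The members' median log2 fold difference relative to all shared regions stayed between -0.96 and -0.50, and 5.70 to 8.64% of members lay over 100 kb from the next shared region. The alternatives that needed transcription starts were not run. No fit with the replicate number as a block was made, since no result comes from a test. Unknown total reads, and 2 libraries per genotype, limit all of these values, and a region near the limit of calling in the knockout is a member only if it was still called there.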
